A study of Mus musculus with 1 sample.

Results

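A group of 9 genes that set and hold the epithelial state was measured by 17 probe sets in cultured mouse lung cancer cells. They were the grainyhead-like transcription factor genes Grhl1, Grhl2 and Grhl3, the zinc finger repressor genes Ovol1 and Ovol2, the splicing regulator genes Esrp1 and Esrp2, and the epithelium-specific ETS factor genes Elf3 and Ehf. Their 17 probe sets were all those naming exactly 1 of these genes, out of 34945 one-gene probe sets for 18193 genes. The cells were a line derived from a KR tumor of the B6/J strain, titled KR Primary and grown in serum-containing medium to near confluence. The labels leave KR unexpanded and give no number of clones or tumors, although the series title speaks of kras tumors. The data are 1 sample on 1 Affymetrix array of total RNA, so there is no comparison group, no replicate error and no p-value.

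These factors form a network that keeps cells epithelial. GRHL proteins bind enhancers and promoters of junction genes such as Cdh1 and hold their chromatin open. OVOL proteins repress inducers of the mesenchymal state, ZEB1 among them, and ZEB1 in turn represses Cdh1, Grhl2, Ovol2 and Esrp1. ESRP proteins bind pre-mRNA and direct the epithelial splice forms of Fgfr2, Cd44 and Ctnnd1. ELF3 and EHF are ETS factors of mucosal, glandular and airway epithelium.

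The promoters below are shown because they hold letters read by the repressors and activators of this network. RefSeq promoter sequences (GRCm38.p6, 250 bases before and 50 from the start site on) were matched for 4 of the 9 genes, Grhl1, Grhl3, Ovol2 and Elf3, with 5 start sites in all. Rab25, a small GTPase gene driven by GRHL2, is added as the target promoter with a GRHL match. Capitals mark the E-box CAGGTG or the variant CAGGTA read by ZEB and Snail factors, the GRHL pattern AACNGGTT and the ETS pattern GGAAGT, searched on both strands.
Elf3, chr1:135258423-135258722, minus strand: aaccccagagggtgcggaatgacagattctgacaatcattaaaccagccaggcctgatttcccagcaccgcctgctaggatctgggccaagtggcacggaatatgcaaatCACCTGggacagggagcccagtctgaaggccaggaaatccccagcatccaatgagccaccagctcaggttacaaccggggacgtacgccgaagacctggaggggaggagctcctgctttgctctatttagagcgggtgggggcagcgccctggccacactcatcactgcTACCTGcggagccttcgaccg
Grhl3, chr4:135573583-135573882, minus strand: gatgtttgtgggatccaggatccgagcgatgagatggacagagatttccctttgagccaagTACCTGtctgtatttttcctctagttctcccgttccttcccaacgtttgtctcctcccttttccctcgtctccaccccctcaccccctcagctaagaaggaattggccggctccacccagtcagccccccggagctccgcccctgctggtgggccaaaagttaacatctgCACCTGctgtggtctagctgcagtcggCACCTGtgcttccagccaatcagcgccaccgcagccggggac
Ovol2, chr2:144331313-144331612, minus strand: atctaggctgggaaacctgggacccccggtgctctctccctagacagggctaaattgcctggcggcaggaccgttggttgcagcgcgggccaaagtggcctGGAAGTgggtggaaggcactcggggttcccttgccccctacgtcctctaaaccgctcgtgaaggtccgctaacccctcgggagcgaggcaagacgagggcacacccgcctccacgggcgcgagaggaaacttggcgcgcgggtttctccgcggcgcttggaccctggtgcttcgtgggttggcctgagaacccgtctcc
Rab25, chr3:88548230-88548529, minus strand: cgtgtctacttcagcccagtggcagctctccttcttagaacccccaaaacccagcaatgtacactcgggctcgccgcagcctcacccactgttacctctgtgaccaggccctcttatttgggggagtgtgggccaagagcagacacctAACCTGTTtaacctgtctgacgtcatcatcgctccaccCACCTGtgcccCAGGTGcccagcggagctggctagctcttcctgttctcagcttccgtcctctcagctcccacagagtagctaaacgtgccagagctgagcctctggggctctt

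The E-box CAGGTG was present in 2 of the 5 members' promoters, those of Elf3 and Grhl3, and in 20.2% of all 32851 promoters. The variant CAGGTA was present in the same 2 promoters and in 12.0% of all promoters. Grhl3 held 2 E-boxes and 1 variant, and Elf3 held 1 of each. The ETS pattern was found in the Ovol2 promoter alone among the 5, against 23.8% of all promoters. Neither the GRHL pattern (2.09% of all promoters) nor the OVO pattern CCGTTA (2.76%) was found in any of the 5. A match is a run of letters and not a measured binding site.

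Signals were judged against probe sets of smell, taste and hair follicle genes on the same array. The 126 probe sets of this background set had a median signal of 6.41, and their 95th percentile, 16.8, is called the background line. Their highest signal, 60.6, is called the upper background limit. That limit rests on 1 probe set of a keratin-associated gene, and the next highest read 42.2. Signals are in arbitrary fluorescence units on a linear scale, and a gene counts as above a threshold if at least 1 of its probe sets is. Probe sets differ in brightness, so signals of different genes do not order their RNA amounts. A bulk sample also cannot tell fewer expressing cells from less RNA per cell.

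Every one of the 9 regulators gave signal above the background line, and 7 of them passed the upper limit. For all measured genes these shares were 63.3% and 47.5%. Grhl3 and Ovol1 were the 2 between the thresholds. Without keratin-associated genes in the background set the upper limit was 19.2, and all 9 genes passed it. The median of the 9 highest signals was 143, and the median over all genes was 48.3. Of the 17 probe sets, 15 passed the line (88.2%, against 60.9% of all one-gene probe sets) and 9 passed the upper limit (52.9%, against 41.1%). With the line moved to the 99th percentile of the background set, 36.9, 7 of the 9 genes passed. With every probe set of a gene required to pass the upper limit, 4 did. Shares of all genes under these other settings were not computed, so these counts lack that reference.

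**Figure D1:**
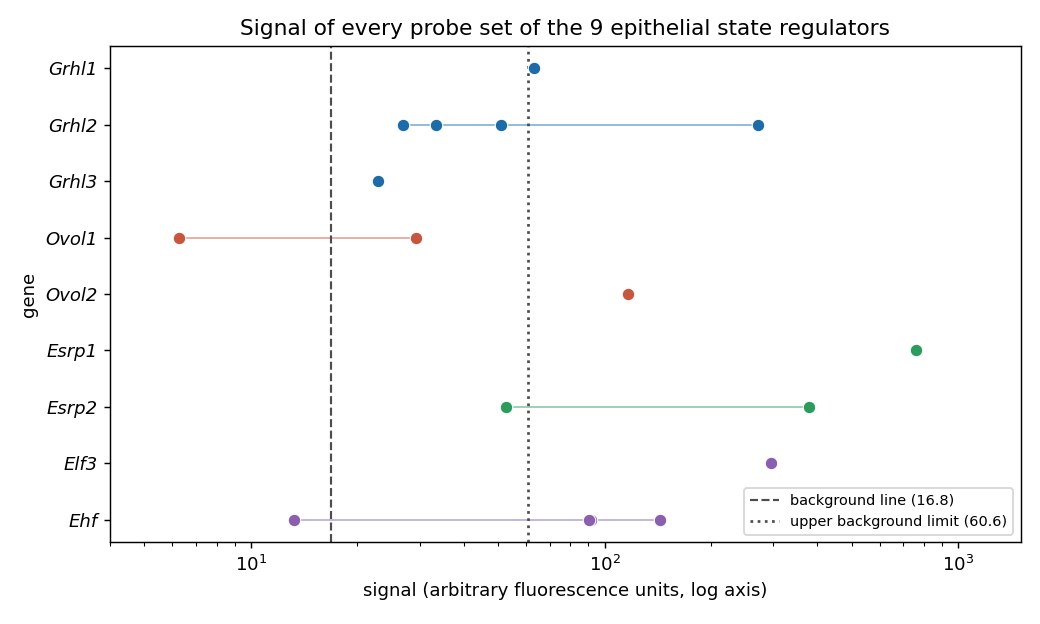
Signal of each of the 17 probe sets (points, log axis, arbitrary units) by gene on the single KR Primary array, with a thin bar joining probe sets of a gene, the background line at 16.8 (dashed) and the upper background limit at 60.6 (dotted). All 9 genes have a point to the right of the line, and the points of Grhl3 and Ovol1 stay left of the upper limit.

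The chance of passing grows with the number of probe sets, so the genes were also read within classes of equal number. The 5 regulators with 1 probe set (Grhl1, Grhl3, Ovol2, Esrp1 and Elf3) all passed the line, where 48.4% of the 9183 genes with 1 probe set did. Of these 5, 4 passed the upper limit, against 32.6%. The 2 with a pair of probe sets, Ovol1 and Esrp2, passed the line, against 72.4% of such genes, and 1 of them, Esrp2, passed the upper limit, against 54.8%. Both genes with 4 probe sets, Grhl2 and Ehf, passed the line (87.5% of such genes) and the upper limit (71.8%).

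The GRHL genes read unevenly. Grhl2, the family member that maintains Cdh1 and claudin genes in lung and other simple epithelia, gave signals of 272, 51.1, 33.5 and 27.0 on probe sets 1427046_at, 1431877_a_at, 1431878_at and 1452643_at. All 4 passed the line, the highest at 16.2 times its value, and only the first passed the upper limit. Its highest signal was 10.1 times its lowest.

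Grhl1, which acts on desmosomal cadherin genes in skin and hair, read 63.4 on its single probe set 1424030_at. This value lay just above the upper limit and was 3.77 times the line. Grhl3, the family member of epidermal barrier formation and neural tube closure, read 22.9 on 1436932_at, 1.36 times the line. Its log2 signal was 0.44 above the line, and its log2 distance to a line at the 99th percentile of the background set was -0.69. The sole Grhl3 probe set thus lay where a few background genes also lie.

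The wider grainyhead superfamily includes the CP2 factors, which bind related DNA but act in many tissues. Ubp1 gave 588 and 133 on its 2 probe sets and Tfcp2 gave 83.6 on 1. Tfcp2l1, a CP2 factor of kidney and salivary ducts and of naive pluripotent cells, read 52.5, 0.852 and 0.251. Both Ubp1 probe sets and the Tfcp2 probe set passed the upper limit, and Tfcp2l1 passed the line on 1 of 3.

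Of the OVOL pair, only Ovol2 passed the upper limit. Ovol2, a repressor of mesenchymal inducers in embryonic and adult epithelia, read 117 on 1449205_at, 6.93 times the line. Ovol1, which acts in epidermal and hair differentiation and in germ cells, read 29.3 on 1419051_at and 6.25 on 1419052_at. One of the Ovol1 probe sets therefore passed the line and the other lay close to the background median of 6.41. The Ovol1 call was lost with a line at the 99th percentile, where the log2 distance of its higher signal was -0.33. It was also lost when both probe sets had to pass. The third family member, Ovol3, was not analysed here.

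Both ESRP genes gave signals well above background. Esrp1, the main splicing regulator of the epithelial program, read 760.5 on its only probe set, 1454681_at. That is 45.3 times the line, or 5.50 on the log2 scale. Esrp2, its paralog with an overlapping set of target exons, read 379 on 1433683_at and 52.7 on 1419977_s_at, 22.5 and 3.14 times the line. The ending _s_at marks probes that can match transcripts of more than 1 gene.

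The RefSeq table gives 1810019D21Rik the other name Esrp2-as, that is, an antisense transcript of Esrp2. It read 120.2 on its only probe set and is named here after its value was seen. Whether it adds to the Esrp2 signal was not tested.

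The epithelium-specific ETS genes both passed the upper limit. Elf3, induced in epithelia by inflammatory cytokines, read 297 on 1416916_at, 17.6 times the line. Ehf, expressed in airway, prostate and salivary epithelium, read 143 on 1451375_at, 91.5 on 1419475_a_at, 90.5 on 1419474_a_at and 13.3 on 1447760_x_at. The first 3 passed the upper limit and the last lay under the line. The ending _a_at marks probes shared by transcripts of 1 gene, and _x_at marks probe sets in which some probes match other sequences too. The pair of _a_at probe sets gave nearly the same signal.

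ETS relatives outside this group were measured as well. Elf5, an ETS factor of mammary and placental epithelium, read 5.92 and 3.85, and Spdef, an ETS factor of goblet cells, read 7.86. None of these 3 probe sets passed the line. The broadly expressed ETS genes Elk3 and Elf1 gave 856 and 842 on their highest probe sets. Of 9 measured relatives from the grainyhead and ETS families, 7 were above the line, 5 of these above the upper limit too (all genes: 63.3% and 47.5%), with a median highest signal of 83.6.

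Where a regulator had more than 1 probe set, the spread was near that of the median gene in Grhl2, Ovol1 and Ehf and larger in Esrp2. The SD of the log2 signals was 1.51 for Grhl2 (4 probe sets), 1.57 for Ovol1 (2), 2.01 for Esrp2 (2) and 1.53 for Ehf (4). The median SD over the 9010 genes with 2 or more probe sets was 1.45. That median pools genes with different numbers of probe sets, so it is not matched to each regulator. The highest signal exceeded the lowest by 10.8 times in Ehf, 7.18 times in Esrp2 and 4.68 times in Ovol1. This spread between probe sets is not a replicate error, since all come from 1 RNA sample.

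**Figure D2:**
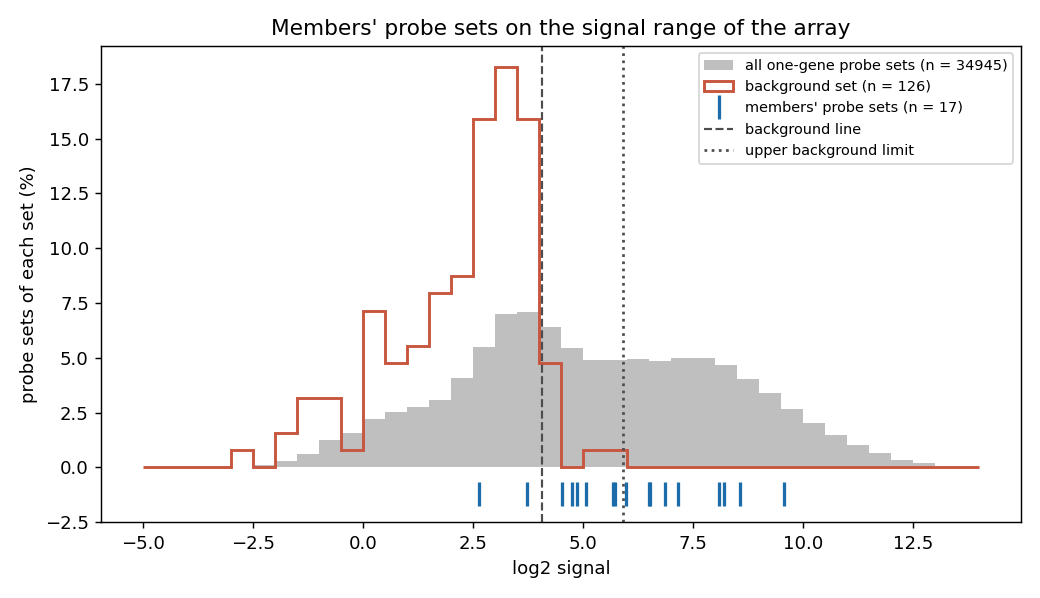
Share of probe sets (%) by log2 signal in bins of equal width for all 34945 one-gene probe sets (grey) and the 126 background probe sets (red outline), with the 17 probe sets of the regulators as blue ticks. Of the ticks, 15 lie right of the background line (dashed) and 9 right of the upper limit (dotted), and none lies in the highest part of the range.

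Genes that GRHL factors bind or drive were above the line in 21 of 21 measured cases, and 19 passed the upper limit, against 63.3% and 47.5% of all genes. Their median highest signal was 1011, against 48.3 over all genes. Cdh1, encoding E-cadherin, gave 4069.5, Spint2, a membrane serine protease inhibitor gene, 3667 and 2406, and Cldn7, a tight junction claudin gene, 3331. Among the direct GRHL2 targets Cldn4 gave 1150.2 and Rab25 gave 1076. Epcam, an epithelial adhesion gene, gave 3219 and 265. Cdh1, Cldn4, Cldn7 and Epcam are also general epithelial markers, and the same values are counted in the cell type check below.

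The lowest 2 of that list were Prom2, a membrane protrusion protein gene, at 34.4 and 2.83, and Arhgef19, at 19.8. Arhgef19 encodes a factor that GRHL3 drives in epidermal wound closure, and its signal lay just above the line. Tgm1, the keratinocyte transglutaminase gene and another GRHL3 target, read 87.0, above the upper limit.

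Promoter sequences were matched for 16 genes of that list, with 21 start sites, some of whose windows overlap. An E-box CAGGTG was found in 13 of the 21 promoters, from 11 genes, against 20.2% of all promoters. The overlapping Marveld2 windows share the same E-box site, which is counted in each of them. The variant CAGGTA was found in 2 of the 21, against 12.0%. The GRHL pattern was found in 1 of the 21, against 2.09% of all promoters. That promoter is the one of Rab25, printed above because it held the match. The first base of the match lies at -102 from the start site. The first bases of the Rab25 E-boxes lie at -64 and -53. The ETS pattern was found in 5 of the 21 (23.8% of all promoters).

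**Figure D3:**
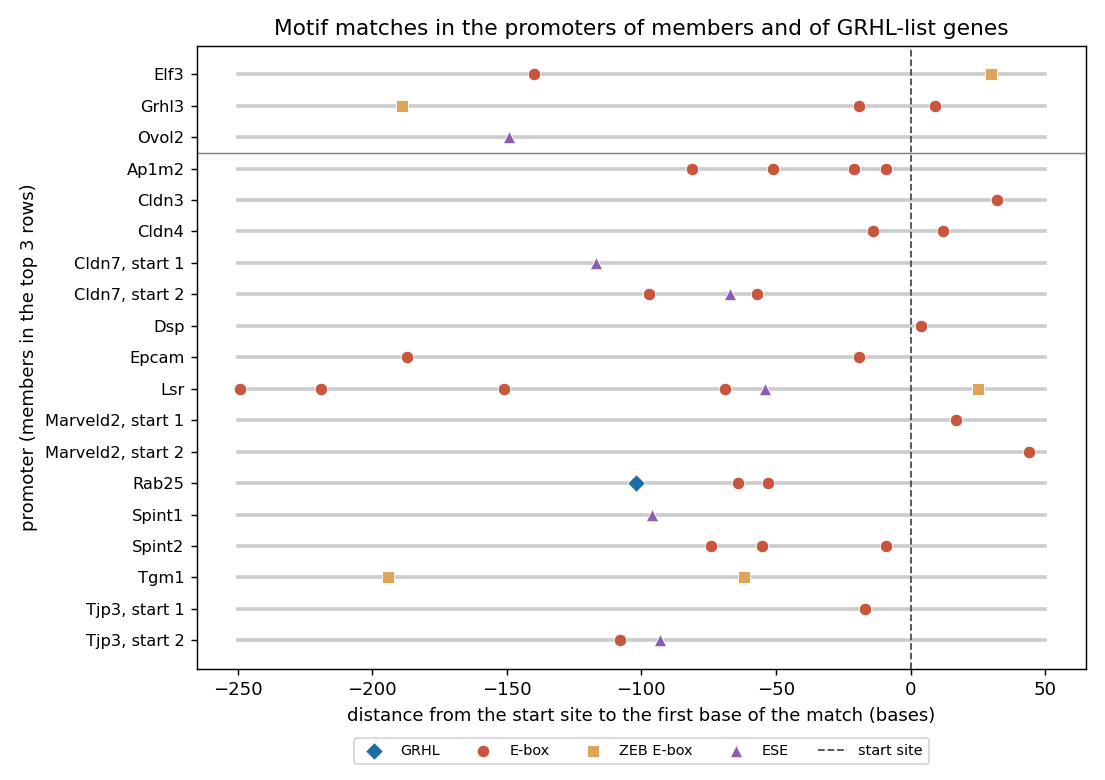
Position of motif matches (bases from the start site, dashed) in the promoters of regulators (top 3 rows) and of GRHL-list genes that held at least 1 match: GRHL pattern AACNGGTT (blue diamond), E-box CAGGTG (red circle), variant CAGGTA (yellow square) and ETS pattern GGAAGT, shown as ESE (purple triangle). E-boxes appear in the Elf3 and Grhl3 rows and in 13 rows of the GRHL list, and the single GRHL match is in the Rab25 row. The Marveld2 rows show the same E-box site.

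Of the genes whose transcripts ESRP proteins splice, all 15 measured were above the line and 14 exceeded the upper limit, with a median highest signal of 344. All genes did so in 63.3% and 47.5% of cases, but this list has 51 probe sets, and among genes with 4 probe sets 87.5% and 71.8% did. With every probe set of a gene required to pass, the counts were 6 and 4. Cd44, a hyaluronan receptor gene whose variable exons ESRP1 retains, read 2545, 2037, 757 and 1.74. Rac1, a GTPase gene of the actin cytoskeleton, read 2293, 2129 and 5.75. Slk, a kinase gene, exceeded the upper limit on 4 of its 5 probe sets, with a highest signal of 1184. Ctnnd1, encoding the E-cadherin partner p120-catenin, read 1003, 425 and 61.2. Enah, an actin regulator gene, passed the line on 4 of 6 probe sets, with a highest signal of 499.

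Fgfr2, whose ESRP-dependent exon switch separates the epithelial from the mesenchymal receptor form, read 40.8, 25.6 and 5.22. It was the only gene of the list under the upper limit, and the next lowest was Arhgef11, at 91.6 and 13.9. These are gene-level signals, and the splice forms themselves were not measured.

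Of 12 genes listed as other splicing regulators of the same switch, 9 exceeded both thresholds (all genes: 63.3% and 47.5%). The median highest signal of the list was 1279.7. The list has 49 probe sets, and among genes with 4 probe sets 87.5% passed the line and 71.8% the upper limit. With every probe set required to pass, the counts for the list were 5 and 1. Srsf1, a general splicing factor gene, gave 4318, Ptbp1 2323 and Celf2 1751 on their highest probe sets. Rbm47, an epithelial RNA-binding protein gene, read 268, 149 and 1.07. The genes of 2 factors that favour mesenchymal exons also gave signal: Rbfox2 read 338, 126, 41.6 and 38.6, and Qk, encoding Quaking, exceeded the upper limit on 3 of its 7 probe sets, with a highest signal of 1280.2. The 3 genes that did not pass the line were Rbfox3, at or below 14.6, Rbfox1, at or below 9.32, and Nova1, at or below 5.31. With the line at the 90th percentile of the background set, 10 of the 12 passed.

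Of 10 genes listed as activated or repressed by ELF3 or EHF, 5 were above the line and 4 exceeded the upper limit (all genes: 63.3% and 47.5%), with a median of 26.9. Krt8, a simple-epithelial keratin gene, read 7422, 7330.3 and 5844. Ptgs2, the inducible cyclooxygenase gene, read 2208 and 623, and Tgfbr2, the type II TGF-beta receptor gene, 1809, 78.2 and 9.86. Nos2, the inducible nitric oxide synthase gene, at 2.48, and Sprr1b, a cornified envelope gene, at 0.769, were below the line. The list mixes activated and repressed genes, so its count carries no direction.

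Repressors of epithelial genes mostly read at background. Of 12 measured, 4 lay above the line and 2 over the upper limit, against 63.3% and 47.5% of all genes, and the median highest signal was 12.8, under the line. Zeb1 read 11.3, 11.0, 1.07 and 0.251, so all its probe sets were below the line. Zeb2 read 22.8 on 1 of 5 probe sets and at or below 6.65 on the others. Snai1, encoding Snail, read 15.8, Snai2, encoding Slug, 25.7 and 12.0, Twist1 1.08 and Foxc2 0.290.

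The 2 repressor genes above the upper limit were Tcf3, at 385, 107 and 31.6, and Snai3, at 121 and 66.9. Tcf3 encodes E2A, a bHLH factor present in most cell types. With the line at the 99th percentile of the background set, these were the 2 that passed. At the 90th percentile 6 of the 12 repressor genes passed the line, and without keratin-associated genes in the background set 5 did.

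Genes listed as kept low by OVOL or GRHL factors gave mixed signals. Of 11, 9 lay above the line and 6 over the upper limit (all genes: 63.3% and 47.5%), with a median highest signal of 272. The list has 33 probe sets. Among genes with 2 probe sets 72.4% passed the line and 54.8% the upper limit, and among genes with 4 probe sets 87.5% and 71.8% did. With every probe set required to pass, the counts for the list were 5 and 3. Sox4, at 3670.0, and Id2, at 1953.5, led the list. Sox4 encodes a SOX factor and Id2 an inhibitor of bHLH factors, and both are also expressed in epithelial cells. Fn1, encoding fibronectin, read 717 and 27.1. Cdh2, encoding N-cadherin, passed the upper limit on both probe sets, at 272 and 170.4. The highest signals of Tgfbr1, a TGF-beta receptor gene, and Bmp4, a ligand gene, were 586 and 329. Vim, the vimentin gene, read 22.8, 11.2 and 8.24. The ligand genes Tgfb3, at 10.2, and Tgfb2, at or below 9.42, were under the line.

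**Figure D4:**
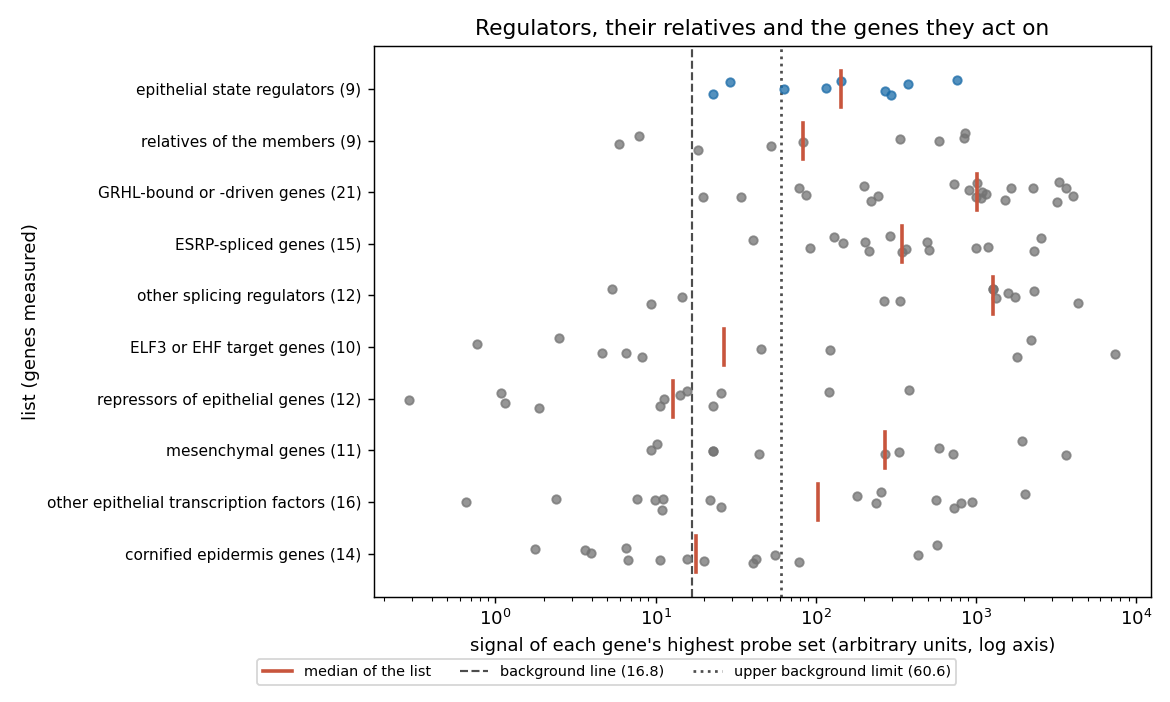
Signal of the highest probe set of each measured gene (points, log axis, arbitrary units) in the regulators (blue) and 9 related lists (grey), with the median of each list (red bar), the background line (16.8) and the upper limit (60.6). The regulators and the GRHL and ESRP target lists lie wholly right of the line, and the median of the repressor list, 12.8, lies left of it.

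Other transcription factors of epithelia lay above the line in 10 of 16 genes, 8 of which exceeded the upper limit, with a median highest signal of 103. These shares are close to the 63.3% and 47.5% of all genes. Foxa1, a pioneer factor gene of endodermal epithelium, gave 2021, Klf4 953 and 298, and Hnf4a, a factor of liver and gut epithelium, 813, 356, 174 and 52.2. Klf5, a factor of proliferating epithelium, read 727, 130.1 and 7.42. Nkx2-1, the lung lineage factor gene, at 7.66, all 4 probe sets of Trp63, the basal cell factor gene, at or below 11.0, Sox2, at 2.40, and Gata3, at 0.654, were under the line.

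Cornified epidermis genes, the setting in which Grhl3 and Ovol1 are best known, lay above the line in 7 of 14 genes, 3 of which exceeded the upper limit, both below the 63.3% and 47.5% of all genes. Without keratin-associated genes in the background set the upper limit was 19.2, and 7 exceeded it. The 3 were Sprr1a, at 568, Ivl, encoding involucrin, at 438 and 90.0, and the basal keratin gene Krt5, at 78.8. Flg, encoding filaggrin, read 3.62 and the protease gene Klk7 1.76. The list median was 18.0.

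The labelled cell type was checked on marker genes. All 8 epithelial markers passed the upper limit, from 1150.2 for Cldn4 to 7600.2 for Krt18. Cdh1, Epcam, Cldn4 and Cldn7 among them were already counted in the GRHL list, and Krt8 in the list of ELF3 and EHF. None of 8 fibroblast and 6 endothelial markers passed it, and 1 of 6 leukocyte markers did, Cd68 at 69.8. The highest signals of fibroblast markers ranged from 3.95 to 19.3, of endothelial markers from 1.64 to 30.3, and of leukocyte markers from 3.34 to 69.8. Counted at the line, 1 fibroblast, 2 endothelial and 2 leukocyte markers were above it. The leukocyte markers above it were Cd68 and Csf1r, the macrophage growth factor receptor gene, which read 47.1, 44.3 and 29.4. The endothelial markers above the line were Kdr, at 30.3, and Cdh5, at 17.4 and 10.7. The leukocyte gene Ptprc, encoding CD45, at or below 11.5, and the endothelial gene Pecam1, at 14.3, were under it. The defining lung factor gene Nkx2-1 was under the line, and the lung origin is taken from the labels.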

How the data were processed

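The authors deposited 1 intensity per probe set, a summarised signal on a linear scale. The submitters' processing notes name Affymetrix Expression Console. Its version, the summary algorithm and any background step were not given in the sources used here, and scanner files and detection calls were not used here. Over all 45101 probe sets the intensity ranged from 0.0591 to 8928. The mean without the top and bottom 2% was 150.0, and no source states a scaling target.

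Probe sets were named from the platform annotation: 34945 named 1 gene, 932 several and 9160 none here. No probe set with several names named a regulator. For 34741 probe sets the symbol was renewed by gene ID from a RefSeq table (GRCm38.p6). Of 138 list memberships, 129 were measured, and the others were not analysed here.

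With 1 array no test was possible, and the number of arrays limits the precision. The background set held the one-gene probe sets of olfactory, vomeronasal, bitter taste and keratin-associated genes (112 genes). The text names every regulator, the 3 highest and 2 lowest genes of each list, and a fixed set of network genes. Also named are 1810019D21Rik, Rbfox3, Tgm1, Cdh2, Tgfbr1, Bmp4, Cd68, Csf1r, Krt18, Kdr, Cdh5 and Pecam1, chosen with their values in view. Marveld2 is named for its overlapping promoter windows. The genes, lists and rules were chosen with earlier results of these data known. Alternatives changed the percentile of the line, the background set, the probe sets admitted, the gene symbols and the rule that combines probe sets. The code that makes the calls was run on simulated data. Simulated unexpressed probe sets were drawn from the background set itself, and expressed ones were centred well above most signals of the array. That run therefore cannot judge calls near the line. Python 3.11.15, numpy 2.4.6, pandas 2.3.3 and matplotlib 3.10.9 were used.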

Additional observations from a re-analysis of the deposited data

How the results depend on the processing

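Among 7 alternative settings, all 9 regulators passed the line at the 90th percentile and without keratin-associated background genes. They also passed it without _s_at and _x_at probe sets, with annotation symbols and with the median over probe sets. Under the median rule Ovol1 passed by a log2 distance of 0.08, and that of Grhl2 fell from 4.01 to 1.33. Then 6 regulators passed the upper limit, and Grhl2 was not among them. At the 99th percentile Grhl3 (log2 distance -0.69) and Ovol1 (-0.33) did not pass, and when all probe sets had to pass Ovol1 (-1.43) and Ehf (-0.34) did not. Without keratin-associated genes the upper limit was 19.2, and all 9 regulators passed it, Grhl3 and Ovol1 included. So did 15 of the regulators' probe sets, 4 repressor genes and 7 cornified epidermis genes. At the 99th percentile 2 repressor genes passed the line, and at the 90th percentile 6 did. When all probe sets had to pass, 4 regulators passed the upper limit, and the counts at the line and at the limit were 4 and 2 for the relatives, 6 and 4 for ESRP-spliced genes, 5 and 1 for other splicing regulators, 2 and 1 for repressors, and 5 and 3 for genes kept low by OVOL or GRHL factors. Then 3 other epithelial factors passed the limit and 4 cornified epidermis genes the line. That rule falls hardest on genes with many probe sets by its construction. Of 108 alternative counts for the lists, 15 moved by over 1.5 times. Shares of all genes were not computed under the alternative settings, so the counts there lack that reference. Signals near the line say little on amount, and with 1 array the spread between samples is unknown.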
